A study of Mus musculus with 16 samples.

Results

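The genes described here encode the enzymes and regulators that build and break down glycogen in isoform sets: the glycogen phosphorylases Pygm, Pygl and Pygb, the glycogen synthases Gys1 and Gys2, the primer glycogenin (Gyg), the phosphorylase kinase subunits Phka1 and Phkg1, and the glycogen-targeting subunits of protein phosphatase 1, Ppp1r3a and Ppp1r3c. They were picked as a list of symbols, by a rule that uses no measured value, and make up 10 of the 55536 genes of the table. Each symbol matched 1 identifier in the GENCODE M21 annotation of the mouse genome build GRCm38. The samples were red gastrocnemius, a part of a calf muscle, and visceral fat, both taken from each of 8 females: 4 Cre-Control mice and 4 with a conditional MyD88 knockout in muscle (Conditional MusMyD88-/-). Every group shared the same history, 5 weeks with a running wheel and then 8 days in a small mouse cage, so neither genotype was seen without it. The labels name neither the Cre driver nor the ages. Mice are named by the numbers in their subject labels, 131, 137, 138 and 11 for the controls and 139, 958, 960 and 29 for the knockouts. A number that appears in both tissues was read as 1 animal.

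Glycogen is a branched polymer of glucose. Synthase extends chains that glycogenin starts on itself, and phosphorylase releases glucose 1-phosphate from the chain ends. Phosphorylase kinase, a complex of alpha, beta and gamma subunits with calmodulin, switches phosphorylase on when calcium or adrenaline signals arrive, while protein phosphatase 1, held on glycogen by its PPP1R3 subunits, switches phosphorylase off and synthase on. Muscle, liver and brain are known for separate phosphorylase genes, and liver has its own synthase. Loss of the muscle phosphorylase causes McArdle disease, in which muscle cannot use its glycogen during exercise. Fat cells hold little glycogen, which turns over with feeding and fasting.

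Total counts were 15203806 to 21747345 in the 8 muscle libraries and 13242243 to 19114782 in the 8 fat libraries. Levels are given as CPM, the count per 1000000 counts of a library after TMM scaling over all 16 libraries. Myd88 was at 3.13 to 5.21 CPM in control muscle and 2.51 to 3.30 CPM in knockout muscle, with overlap, and its difference was not called (log2 fold change -0.47, SE 0.20, edgeR adjusted p = 0.949). Control mouse 138 gave a fat library unlike the rest. Its adipocyte markers, 8 genes such as adiponectin (Adipoq), summed to 4345 CPM against 17010 to 21460 CPM in the other 7 fat libraries. Its smooth muscle myosin Myh11 was at 5498 CPM against 74.3 to 248 CPM, and its bladder epithelium gene Upk1a was at 290 CPM against 0.0442 to 1.68 CPM. Where leaving out this library moved a member's genotype difference in fat by over 1.5 times, the value without it is given. Ranges in fat include it unless stated. The slow fibre markers, 8 genes summed, were at 3512 to 4119 CPM in control muscle, at 6476 to 6956 CPM in knockouts 139, 958 and 960, and at 3022 CPM in knockout 29.

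All 10 members, listed above, differed between the tissues, 7 higher in muscle and 3 higher in fat, and no gene's muscle and fat libraries overlapped. The 7 were Pygm, Gys1, Gyg, Phka1, Phkg1, Ppp1r3a and Ppp1r3c, and the 3 were Pygl, Pygb and Gys2. Gys2, with 0 to 5 counts in each muscle library, entered the test only through its level in fat. The threshold was a Benjamini-Hochberg adjusted p under 0.05 in edgeR's quasi-likelihood test of 8 muscle against 8 fat libraries, and all 10 differences were also at least 2-fold. Over the 17084 genes tested, 35.7% were called higher in muscle and 44.0% higher in fat, 17.7% and 27.7% with the 2-fold limit, and 52.1% had tissues that did not overlap. A call is thus common in this comparison, and the size of each difference says more than the call. Scaling by total counts lowered each gene's log2 fold change by 1.14 to 1.25 and the median over all genes from -0.16 to -1.36, and no member changed direction. A lower level in bulk tissue can mean fewer cells of a type or less RNA per cell, which cannot be told apart here.

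**Figure D1:**
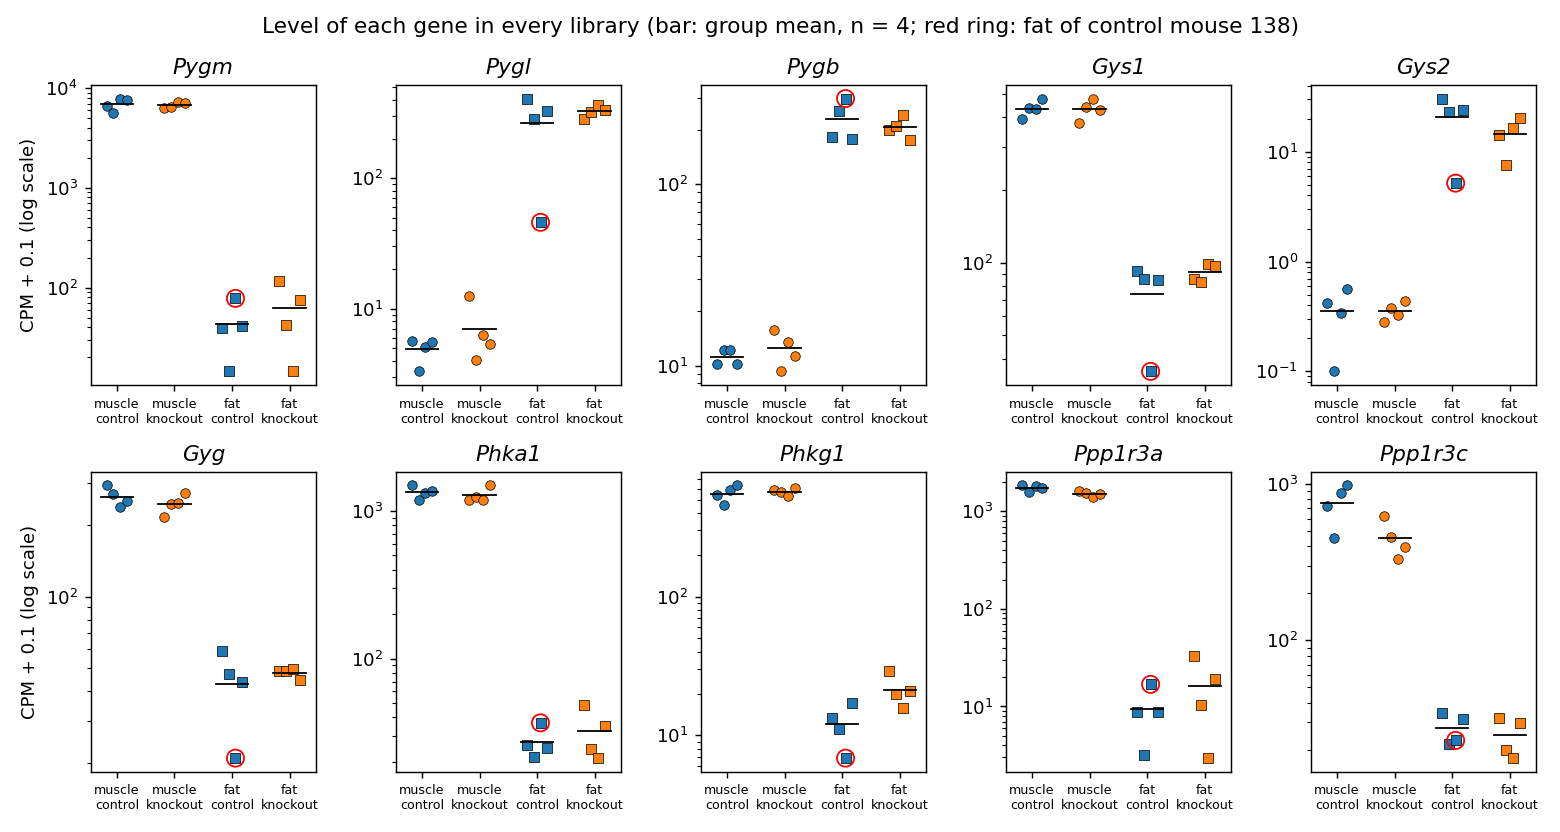
Level of each of the 10 genes in every library, as CPM + 0.1 on a log axis, by tissue and genotype; bars are group means (n = 4), and the red ring marks the fat of control mouse 138. Muscle and fat points do not overlap for any gene, while knockout and control points overlap for every gene in both tissues.

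Among the phosphorylases, muscle carried Pygm almost alone, and fat carried mainly Pygl and Pygb. Pygm, the muscle isoform, was at 6654, 5678, 7848 and 7526 CPM in the control muscles of mice 131, 137, 138 and 11, and at 6322, 6480, 7266 and 7078 CPM in knockouts 139, 958, 960 and 29. In fat it was at 39.6, 14.3, 77.7 and 41.2 CPM in the controls and at 117, 42.3, 14.5 and 75.0 CPM in the knockouts, in the same order of mice. The muscle libraries spanned less than 1.5-fold, whereas the fat libraries spread widely, with knockout 139 highest and control 137 lowest. The tissue difference was 132-fold (log2 fold change 7.05, SE 0.46, edgeR adjusted p = 1.09e-09), and 0.796% of the genes tested had a larger ratio of muscle to fat.

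Pygl, the isoform that serves blood glucose in liver, was at 407, 282, 45.8 and 324 CPM in control fat and at 283, 320, 364 and 334 CPM in knockout fat. In muscle it was at 5.57, 3.22, 4.97 and 5.49 CPM in controls and 12.4, 3.94, 6.23 and 5.30 CPM in knockouts. The fat of mouse 138 lay far below the other 7 fat libraries but above every muscle library. The tissue difference was 51.0-fold toward fat (log2 fold change -5.67, SE 0.40, edgeR adjusted p = 3.63e-09).

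Pygb, the brain isoform, which is also found in many other tissues, was at 183, 252, 296 and 177 CPM in control fat and 199, 209, 242 and 176 CPM in knockout fat. Muscle values were 9.19 to 15.7 CPM. Here the fat of mouse 138 was the highest of all libraries, the opposite of its place for Pygl. Pygb was 18.6-fold higher in fat (log2 fold change -4.21, SE 0.14, edgeR adjusted p = 7.04e-13).

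To compare isoforms with each other, each CPM was divided by the length of the gene's exons in kilobases and expressed as a share of the summed level of its family. Pygm made up 99.7 to 99.9% of the phosphorylase level in the 8 muscle libraries. In fat, Pygl had a mean share of 40.6% ± 14.7 and Pygb of 43.8% ± 11.5 (SD, n = 8), with ranges of 7.19 to 54.0% and 33.7 to 66.7%. Pygm had the remainder, from 4.19% in knockout 960 to 30.5% in knockout 139. The order of Pygl and Pygb in fat depended on the length used: with the longest transcript in place of all exons, the mean shares were 54.1% for Pygl and 34.6% for Pygb. Without mouse 138 the shares by exon length were 45.4% ± 6.18 for Pygl and 40.6% ± 7.40 for Pygb (SD, n = 7). The summed phosphorylase level was 2134 ± 220 CPM per kb in muscle and 104 ± 8.47 CPM per kb in fat (SD, n = 8 each), a 20.5-fold difference, and in fat it varied less between libraries than any of the 3 isoforms did.

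**Figure D2:**
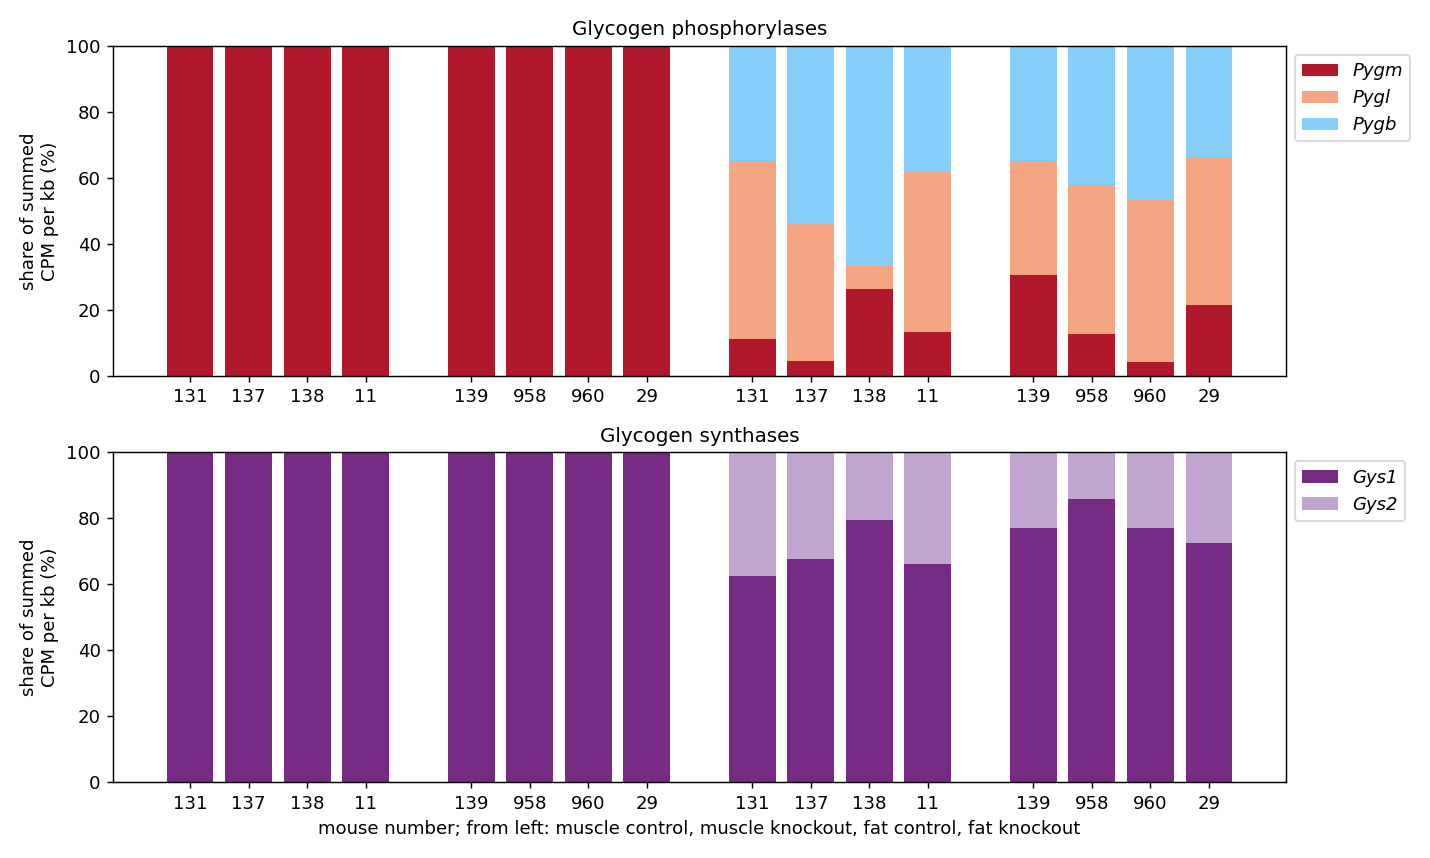
Share of each isoform in the summed length-scaled level (CPM per kb) of the phosphorylases (top) and of the synthases (bottom), 1 bar per library, labelled by mouse. Muscle bars are filled by Pygm and Gys1, while fat bars hold all isoforms, with Pygl reduced to 7.19% in the fat of mouse 138.

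Of the synthase genes, Gys1 was higher in muscle and Gys2 in fat. Gys1, the synthase of muscle and most other tissues, was at 391, 438, 433 and 474 CPM in control muscle and 378, 440, 477 and 426 CPM in knockout muscle. In fat it was at 92.0, 85.3, 35.4 and 85.0 CPM in controls and 85.5, 83.4, 98.7 and 96.7 CPM in knockouts, so that 7 fat libraries lay close together and mouse 138 lay below them. Gys1 was 5.25-fold higher in muscle (log2 fold change 2.39, SE 0.16, edgeR adjusted p = 1.16e-09). Exons of Gys1 overlap 310 bases of Ruvbl2 on the other strand, and 5.7% of its stretches of 51 bases also occur in other genes. How strand and multi-mapped reads were treated in the counting is not given, so a small part of its counts is uncertain.

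Gys2, the liver synthase, was found mainly in fat. It was at 30.4, 22.7, 5.08 and 24.1 CPM in control fat and 14.1, 7.55, 16.2 and 20.2 CPM in knockout fat. The 8 muscle libraries held 25 counts of Gys2 in all, 0 to 5 in each, and the 0 counts of control muscle 137 allow up to 0.254 CPM (3 counts). Gys2 entered the tissue test only through its level in fat, and its fitted difference was 65.9-fold toward fat (log2 fold change -6.04, SE 0.46, edgeR adjusted p = 7.58e-09).

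By exon length, Gys2 made up 14.02 to 37.36% of the synthase level in fat (mean 26.4%, or 16.8% with no length scaling) and at most 0.177% in muscle. Gys1 was thus the main synthase transcript in every library of both tissues, in contrast to the phosphorylases, whose leading isoform changed with the tissue. Pygm stood 19.3 to 27.0-fold above Gys1 per kilobase within muscle libraries, with a median of 24.2. In fat the ratio of Pygl to Gys1 was 0.900 to 3.07, below 1 in mouse 138, with a median of 2.48 by exon length and 4.17 by the longest transcript.

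Gyg, the glycogenin that primes each new glycogen particle, had a tissue difference close to that of Gys1. It was at 293, 270, 237 and 252 CPM in control muscle, 215, 244, 248 and 272 CPM in knockout muscle, and 20.8 to 58.8 CPM in fat, lowest again in mouse 138. Its difference was 5.62-fold (log2 fold change 2.49, SE 0.16, edgeR adjusted p = 6.39e-10).

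Both phosphorylase kinase subunits were far higher in muscle. Phka1, the regulatory alpha subunit of the muscle enzyme, was at 1177 to 1491 CPM in muscle and at 21.1 to 48.0 CPM in fat, 44.3-fold lower (log2 fold change 5.47, SE 0.19, edgeR adjusted p = 1.05e-12). Phkg1, the catalytic gamma subunit of the muscle enzyme, was at 453 to 632 CPM in muscle and 6.75 to 29.1 CPM in fat, 35.1-fold lower (log2 fold change 5.13, SE 0.19, edgeR adjusted p = 1.71e-12). Of the stretches of 51 bases in the exons of Phkg1, 10.9% also occur in other genes, and its exons overlap 630 bases of Sumf2 on the other strand, so its level is less certain than the others.

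The other subunit genes split by tissue as well. Phka2, the alpha subunit of the liver enzyme, was at 17.7 to 20.9 CPM in muscle and 39.2 to 118 CPM in fat, and was called higher in fat (log2 fold change -2.19, SE 0.14, edgeR adjusted p = 1.22e-09). Phka1 accordingly made up 98.2 to 98.8% of the alpha subunit level per kilobase in muscle and 15.7 to 47.5% in fat, highest in mouse 138. Without mouse 138 its highest share in fat was 28.3%. Phkg2, the other gamma subunit, was at 7.96 to 9.62 CPM in muscle and 11.0 to 13.7 CPM in fat. The Phkg1 share of the gamma level was 97.2 to 97.9% in muscle and 26.5 to 59.4% in fat. Phkb, the beta subunit shared by both enzymes, was 7.99-fold higher in muscle (SE 0.09 on the log2 scale, edgeR adjusted p = 2.8e-13).

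Of the glycogen-targeting subunits of protein phosphatase 1, Ppp1r3a and Ppp1r3c were both higher in muscle. Ppp1r3a, the subunit of striated muscle, was at 1852, 1598, 1807 and 1738 CPM in control muscle and 1607, 1554, 1410 and 1503 CPM in knockout muscle. In fat it was at 8.61, 3.04, 16.8 and 8.76 CPM in controls and 32.6, 10.3, 2.85 and 19.0 CPM in knockouts. Its 133-fold difference was close to that of Pygm (log2 fold change 7.05, SE 0.48, edgeR adjusted p = 2.3e-09), and 0.784% of the genes tested had a larger ratio of muscle to fat.

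Ppp1r3c, also called protein targeting to glycogen, is expressed in many tissues, fat among them. It was at 721, 453, 884 and 983 CPM in control muscle, 626, 459, 331 and 399 CPM in knockout muscle, and 17.5 to 34.1 CPM in fat. Its muscle libraries spread about 3-fold, more than those of the other 6 genes that are higher in muscle. The tissue difference was 22.6-fold (log2 fold change 4.50, SE 0.22, edgeR adjusted p = 2.76e-11). Over the 7 PPP1R3 genes, Ppp1r3a and Ppp1r3c held 52.4% ± 7.56 and 46.8% ± 7.64 of the level per kilobase in muscle (SD, n = 8), and the other 5 together held the small rest. With no length scaling the muscle shares were 73.3% for Ppp1r3a and 26.1% for Ppp1r3c. In fat Ppp1r3c held 51.9% ± 5.90 (SD, n = 8) and Ppp1r3a 2.74 to 20.8%. The liver-type subunit Ppp1r3b held 8.40 to 30.6% in fat and at most 0.108% in muscle. Its highest share in fat was that of mouse 138, and without this mouse the highest was 17.2%.

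Upstream sequence is shown for 4 of the 7 genes that were higher in muscle, because it lets the shared letters be seen: these are the genes whose window held the motif CAGCTG and whose RefSeq and GENCODE starts lie 0 to 9 bases apart. CAGCTG is a form of the E-box, the sequence that MyoD and the other myogenic factors bind. Each line gives the 250 bases before the RefSeq start (build GRCm38.p6), 5′ to 3′ on the strand of the gene, and capitals mark CAGCTG, which reads the same on both strands, and in Ppp1r3a also a match to the MEF2 consensus, the motif of another family of muscle factors. The windows are chr19:6384158-6384407 (+) for Pygm, chr7:45434589-45434838 (+) for Gys1, chrX:102644247-102644496 (-) for Phka1 and chr6:14755275-14755524 (-) for Ppp1r3a.
Pygm: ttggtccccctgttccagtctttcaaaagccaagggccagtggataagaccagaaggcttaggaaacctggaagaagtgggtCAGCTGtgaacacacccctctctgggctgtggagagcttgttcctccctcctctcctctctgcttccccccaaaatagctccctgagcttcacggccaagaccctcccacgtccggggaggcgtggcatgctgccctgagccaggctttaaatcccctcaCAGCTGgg
Gys1: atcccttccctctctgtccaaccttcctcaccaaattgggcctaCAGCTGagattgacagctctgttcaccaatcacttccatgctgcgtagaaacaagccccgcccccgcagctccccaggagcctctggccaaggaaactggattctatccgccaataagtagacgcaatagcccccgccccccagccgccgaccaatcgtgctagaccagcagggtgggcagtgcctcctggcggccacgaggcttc
Phka1: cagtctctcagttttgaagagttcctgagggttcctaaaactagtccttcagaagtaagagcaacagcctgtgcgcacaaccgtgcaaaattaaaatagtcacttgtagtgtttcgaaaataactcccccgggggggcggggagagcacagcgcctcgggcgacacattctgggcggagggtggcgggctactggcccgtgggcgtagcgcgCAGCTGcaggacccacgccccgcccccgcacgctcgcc
Ppp1r3a: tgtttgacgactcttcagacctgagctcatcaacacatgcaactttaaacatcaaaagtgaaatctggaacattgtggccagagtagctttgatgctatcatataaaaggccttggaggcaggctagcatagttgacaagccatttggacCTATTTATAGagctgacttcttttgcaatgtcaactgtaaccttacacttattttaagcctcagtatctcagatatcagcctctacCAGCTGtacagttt
Windows were present for 9 of the 10 genes. CAGCTG occurred in 5 of them, in Pygm 2 times and in Gys1, Phka1, Ppp1r3a and Ppp1r3c 1 time each. It was not in the windows of Gyg, Phkg1, Pygl or Pygb. Of all 32851 RefSeq windows of the same length, 4271 (13%) held it. The MEF2 consensus, which does not overlap CAGCTG in these windows, occurred in Ppp1r3a, starting 100 bases before the start, and in 0.508% of all windows. CACGTG, another E-box form, was found in Ppp1r3c, 104 bases before the start, and in 6.02% of all windows. The start of Phkg1 in RefSeq lies 19461 bases from its GENCODE gene end, and that of Pygl 3805 bases, so their windows may miss the start used in these tissues. These matches describe letters and not binding.

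Within muscle the genes fell into an order by level per kilobase of exon. Pygm led with 2131 ± 220 CPM per kb, with no overlap with the next gene. Ppp1r3a (235 ± 22.0), Ppp1r3c (223 ± 87.3) and Phka1 (209 ± 20.8 CPM per kb) followed and overlapped as neighbours. Gyg (108 ± 10.3), Gys1 (90.2 ± 7.30) and Phkg1 (86.2 ± 8.66 CPM per kb) came next and likewise overlapped. Pygb, Pygl and Gys2 were at 2.43, 0.854 and 0.0966 CPM per kb, with no overlap between neighbours. By the longest transcript Phkg1 moved up to 236 CPM per kb, beside Ppp1r3a, and Pygb and Pygl overlapped.

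The order in fat was far flatter. Pygb (45.1 ± 8.94) and Pygl (42.8 ± 15.8 CPM per kb) led, followed by Gyg (19.3 ± 4.64), Gys1 (17.3 ± 4.17), Pygm (16.4 ± 10.9), Ppp1r3c (9.53 ± 2.29), Gys2 (6.61 ± 3.22), Phka1 (4.74 ± 1.50), Phkg1 (2.56 ± 1.04) and Ppp1r3a (1.83 ± 1.42 CPM per kb; SD, n = 8 each). Every neighbouring pair in this order overlapped. Pygl and Gyg did so through mouse 138, since Pygl was at 40.9 to 59.0 CPM per kb in the other 7 libraries and Gyg at most at 25.1. By the longest transcript Pygl led with 93.6 CPM per kb, Pygb followed with 55.5 and did not overlap with Gyg, and Phkg1 moved up to 7.01, next to Gys2.

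The fat libraries held low levels of skeletal muscle markers, and the 7 muscle-high genes were set beside them. For each fat library, the level of a gene was expressed as a percent of its mean level in the 8 muscle libraries. All 14 skeletal muscle markers, among them creatine kinase Ckm, were detected in fat. They summed to 378 to 4302 CPM there against 188800 to 244600 CPM in muscle. Their median ran from 0.165% in knockout 960 and 0.198% in control 137 to 1.90% in knockout 139.

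Pygm and Ppp1r3a in fat moved with these markers. Pygm ran from 0.209% in control 137 to 1.70% in knockout 139, and Ppp1r3a from 0.174% in knockout 960 to 2.00% in knockout 139. Both lay within the range of the 14 markers in 8 of 8 fat libraries, at a median of 1.12 and 1.07 times the marker median. The ratio of Ppp1r3a to Pygm counts was 0.194 to 0.281 in muscle and 0.197 to 0.280 in fat. The part of muscle RNA in these fat values was not tested.

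The other 5 muscle-high genes stood above the markers. Gys1 was at 8.19 to 22.8% of its muscle level and Gyg at 8.20 to 23.1%, above all 14 markers in 8 of 8 fat libraries. Ppp1r3c, at 2.89 to 5.61%, and Phka1, at 1.61 to 3.67%, were also above all 14 markers in 8 of 8. Phkg1, at 1.20 to 5.18%, was above them in 7 of 8 and within their range in mouse 138. Measured against the marker median, the median excess was 36.0-fold for Gys1, 33.4-fold for Gyg, 7.84-fold for Ppp1r3c, 5.44-fold for Phkg1 and 3.50-fold for Phka1.

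**Figure D3:**
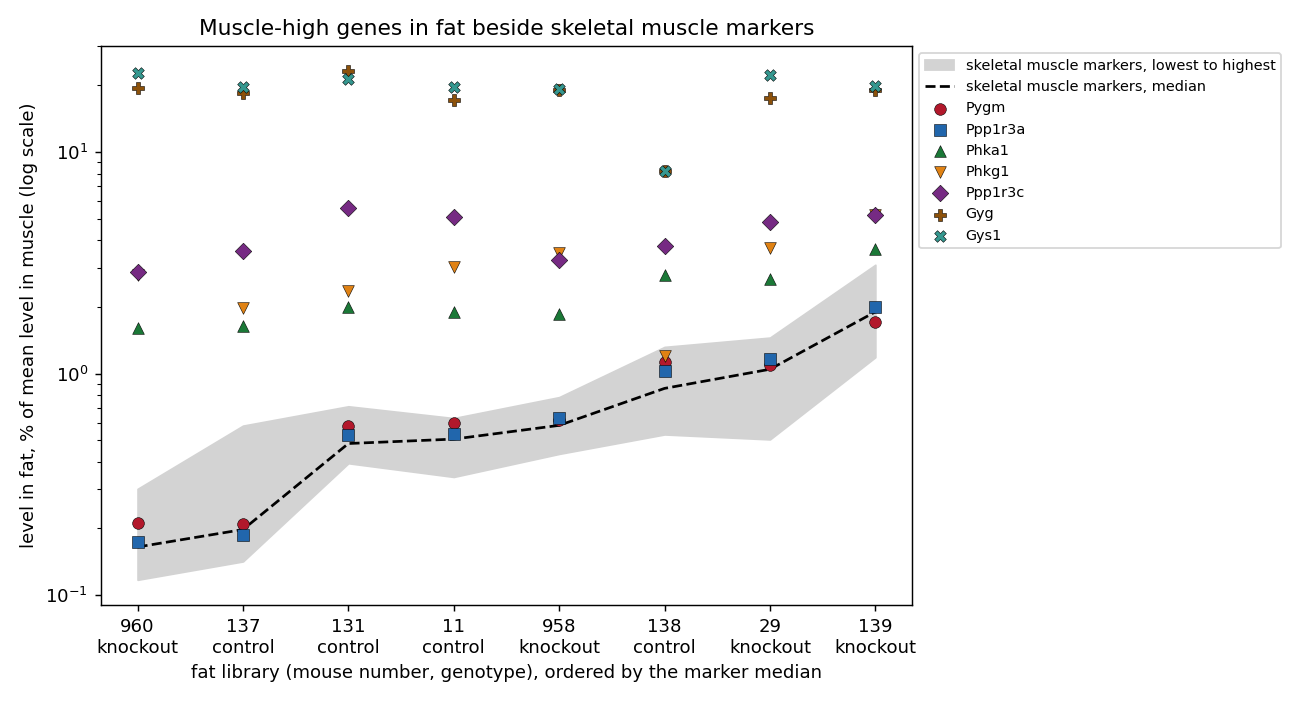
Level of the 7 muscle-high genes in each fat library as a percent of the mean level in muscle (log axis), with libraries ordered by the median of 14 skeletal muscle markers; the grey area spans the lowest to the highest marker. Pygm and Ppp1r3a lie within the grey area in all 8 libraries, and Gys1 and Gyg stay near 20% except in mouse 138, where they are at 8.19 and 8.20%.

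The reverse comparison set the 3 fat-high genes in muscle beside the 8 adipocyte markers. As a percent of the mean fat level, the median marker was at 0.189% in knockout 958 to 1.94% in knockout 139, and all 8 markers were detected in muscle. The highest marker was at 3.43% in knockout 958 to 5.23% in knockout 139. The top of the marker range thus moved far less than the median. Pygl was at 1.09 to 4.19% of its fat level, highest in knockout 139, and lay within the range of the markers in 8 of 8 muscle libraries, at 1.73 to 7.06 times the marker median with a median of 3.56. Gys2, at 0.0 to 2.65%, lay within it in 6 of 8. Pygb, at 4.24 to 7.23%, lay above all 8 markers in 8 of 8, at a median of 9.60 times the marker median. Knockout muscle 139, which had the highest Pygl, also had the highest sums of adipocyte markers (569 CPM against 241 to 389 CPM in the other 7) and of macrophage markers (152 CPM against 73.8 to 128 CPM). The part of these cell types in muscle Pygl was not tested.

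Because Pygl and Gys2 are also the liver isoforms, liver markers in fat were examined. The 5 hepatocyte markers, albumin among them, summed to 10.0 to 346 CPM in fat. Knockout 29 had the highest sum, with 334 CPM of Pygl and 20.2 CPM of Gys2, both within the range of the other fat libraries. Control 131 had the highest Pygl and Gys2 of all, with 67.8 CPM of hepatocyte markers. Control 138 had the lowest hepatocyte sum, 10.0 CPM, and also the lowest Pygl (45.8 CPM) and Gys2 (5.08 CPM) in fat. The part of liver RNA in the Pygl and Gys2 levels of fat was not tested. Macrophage markers in fat summed to 310 to 613 CPM and neutrophil markers to 0.488 to 1.79 CPM.

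The genotype comparison asked whether these genes differed in muscle between the MyD88 knockouts and the controls, whose Myd88 levels overlapped, as given above. None of the 9 genes tested was called in muscle, and 0.0141% of the 14183 genes tested were. At an unadjusted p under 0.05 in edgeR there were 2, Ppp1r3c and Ppp1r3a, beside 715 of the 14183 genes, and DESeq2 and limma voom called 0 as well. Gys2 was too low to be tested. The median log2 fold change (knockout over control) of the 9 was -0.03, against 0.00 over all genes. No gene had knockout and control muscles that did not overlap, where 3.12% of all genes did.

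Ppp1r3c had the largest fitted difference. Its mean was 760 CPM in control and 454 CPM in knockout muscle (log2 fold change -0.75, SE 0.27, edgeR unadjusted p = 0.0245, adjusted p = 0.949). Control 137 (453 CPM) lay among the knockouts and knockout 139 (626 CPM) among the controls. The log2 fold change was -0.93 without mouse 137 or without mouse 139. It was -0.57 without mice 131 and 11, which left controls 137 and 138. Ppp1r3a was at a mean of 1749 CPM in control and 1519 CPM in knockout muscle (log2 fold change -0.21, SE 0.09, edgeR unadjusted p = 0.0295, adjusted p = 0.949). Only knockout 139 (1607 CPM) lay above the lowest control (1598 CPM). The slow fibre markers given above were higher in knockouts 139, 958 and 960 and not in knockout 29, and their part in these differences was not tested.

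Apart from Pygl, the remaining genes tested had small fitted differences between genotypes in muscle, and none was called. The log2 fold changes were -0.03 (SE 0.12) for Pygm, -0.02 (SE 0.09) for Gys1, -0.11 (SE 0.09) for Gyg, -0.08 (SE 0.10) for Phka1 and 0.04 (SE 0.10) for Phkg1. Pygb was at 0.14 (SE 0.15). Pygl was at 0.50 (SE 0.34) and at 0.11 (SE 0.21) without mouse 139. The edgeR adjusted p of these 7 genes were 0.949 to 0.992.

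In fat, where MyD88 was not targeted, the comparison asked whether the muscle knockout was accompanied by a change in another tissue. None of the 10 genes was called, and 0.00613% of the 16323 genes tested were. At an unadjusted p under 0.05 there was 1 in edgeR, Phkg1, beside 1305 of the 16323 genes, and DESeq2 and limma voom called 0. The median log2 fold change of the 10 was 0.26, against -0.01 over all genes, and no gene had groups that did not overlap, where 6.32% of all genes did.

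Phkg1 was at 13.3, 11.1, 6.75 and 17.0 CPM in control fat and at 29.1, 19.6, 15.7 and 20.8 CPM in knockout fat, and only knockout 960 lay below the highest control. The log2 fold change was 0.82 (SE 0.29, edgeR unadjusted p = 0.0202, adjusted p = 0.591), and 0.63 (SE 0.23, edgeR adjusted p = 0.245) without mouse 138. Skeletal muscle markers moved the same way in fat, with 14 of 14 higher in knockouts at a median log2 fold change of 0.87 and none called, and their part in the Phkg1 difference was not tested. Pygm and Ppp1r3a, which followed those markers, were at 0.52 (SE 0.65) and 0.79 (SE 0.71). Without mouse 139, whose fat had the highest marker levels, Phkg1 was at 0.63 (SE 0.29, edgeR unadjusted p = 0.0618), Pygm at 0.02 (SE 0.66) and Ppp1r3a at 0.20 (SE 0.71). Without mouse 138, Pygm was at 0.97 (SE 0.77) and Ppp1r3a at 1.24 (SE 0.86). Without mice 131 and 11, which left controls 137 and 138, Phkg1 was at 1.24 (SE 0.32, edgeR adjusted p = 0.467).

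For the remaining genes in fat the values depended on mouse 138. With all 8 fat libraries, Pygl was at 0.30 (SE 0.53), Gys1 at 0.29 (SE 0.27), Gyg at 0.17 (SE 0.26) and Pygb at -0.14 (SE 0.20) on the log2 scale. Without mouse 138 the values were -0.05 (SE 0.13), 0.06 (SE 0.08), -0.06 (SE 0.10) and 0.02 (SE 0.14). Gys2 went the other way, from -0.50 (SE 0.50) to -0.82 (SE 0.30, edgeR unadjusted p = 0.03, adjusted p = 0.251). Its remaining controls were at 22.7 to 30.4 CPM and the knockouts at 7.55 to 20.2 CPM. In that setting 2746 of the 16579 genes tested had an edgeR unadjusted p under 0.05. Without mice 131 and 11 the controls left were 137 and 138, at 22.7 and 5.08 CPM, and Gys2 was at 0.06 (SE 0.62). Phka1 was at 0.23 (SE 0.28) and Ppp1r3c at -0.16 (SE 0.23), and without mouse 138 at 0.41 (SE 0.29) and -0.24 (SE 0.25).

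**Figure D4:**
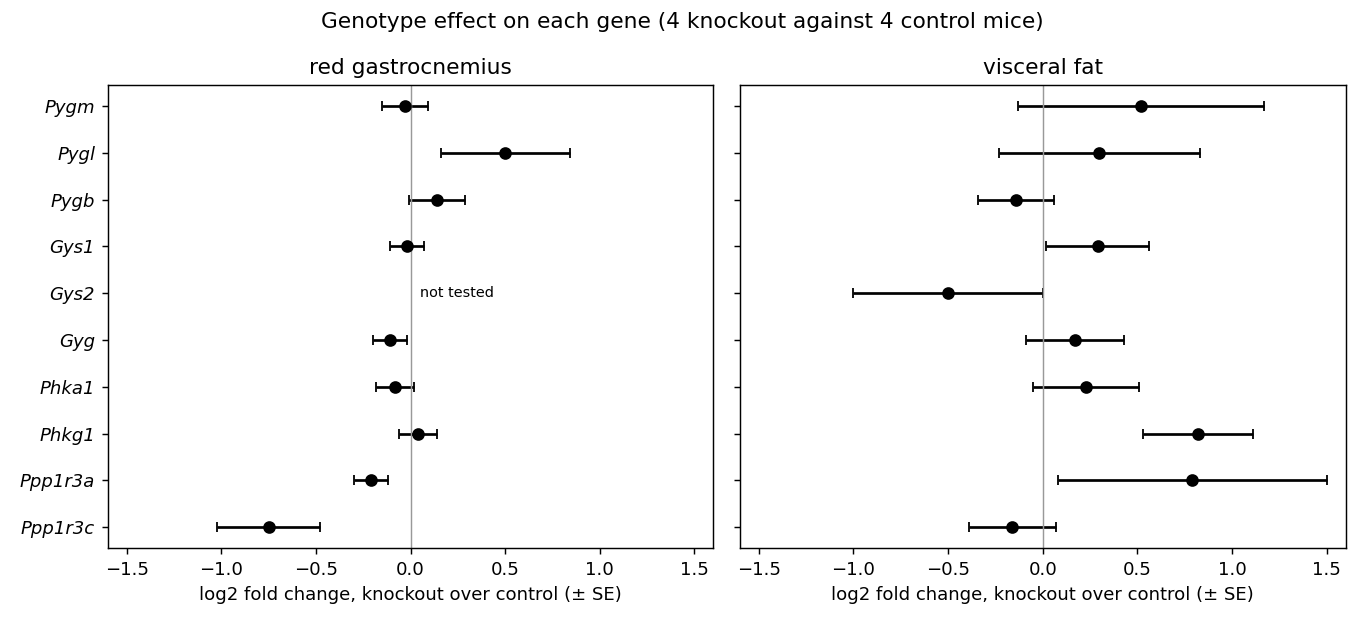
Log2 fold change of knockout over control for each gene, with its SE, in red gastrocnemius (left) and visceral fat (right), 4 mice per genotype. Ppp1r3c in muscle (-0.75) and Phkg1 in fat (0.82) lie farthest from 0 in their panels, with Ppp1r3a in fat at 0.79. None passed the threshold. The errors are wider in fat than in muscle for every gene tested in both tissues except Ppp1r3c.

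An interaction term asked whether the genotype effect differed by tissue. None of the 10 genes was called, and 0.0% of the 17084 genes tested were, with 1229 at an unadjusted p under 0.05 in edgeR and 11 called by DESeq2, none of them among the 10. Phkg1 had the smallest p (log2 interaction -0.78, SE 0.32, edgeR unadjusted p = 0.0294, adjusted p = 0.673). Ppp1r3c was at -0.58 (SE 0.38, edgeR adjusted p = 0.744).

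The rest of the glycogen pathway, a list of 32 other genes, leaned toward muscle under TMM scaling. Of 31 tested, 20 were called higher in muscle and 8 higher in fat, with a median log2 fold change of 1.03 against -0.16 over all genes. Of all 17084 genes tested, 35.7% were called higher in muscle and 44.0% higher in fat. Under total-count scaling the same list gave 13 calls higher in muscle and 15 higher in fat, beside 1899 and 13650 of all 17084 genes. In that scaling 7 genes of the list changed sign (Calm2, Ppp1r3d, Ppp1r3f, Ppp1cc, Gsk3a, Gsk3b and Prkag1). Ppp1r3g was too low to be tested.

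Among the enzymes around synthase and phosphorylase, Pgm1, a phosphoglucomutase, and Ugp2, which makes UDP-glucose, both had a log2 fold change of 3.05 (SE 0.19 and 0.12). Stbd1, a glycogen-binding protein, was at 2.21 (SE 0.24), and laforin (Epm2a), a glycogen phosphatase, at 3.21 (SE 0.09). The branching enzyme Gbe1 ranged over 96.9 to 147 CPM in muscle and 46.5 to 205 CPM in fat, and was not called (log2 fold change -0.30, SE 0.22, edgeR adjusted p = 0.213).

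Subunits of AMP-activated protein kinase, which phosphorylates synthase and senses energy and glycogen, split by isoform. Prkag3, Prkaa2 and Prkab2 were higher in muscle, with log2 fold changes of 5.52 (SE 0.24), 4.35 (SE 0.26) and 3.68 (SE 0.17). Prkag2, Prkaa1 and Prkab1 were higher in fat, at -1.85 (SE 0.14), -0.79 (SE 0.07) and -0.56 (SE 0.19). Prkag1 was at 0.74 (SE 0.06) under TMM and at -0.46 under total-count scaling. The phosphatase subunits Ppp1r3b and Ppp1r3e were higher in fat, at -3.46 (SE 0.27) and -2.26 (SE 0.29). The edgeR adjusted p of the called genes named in this and the preceding paragraph were at most 0.0149.

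No gene of this list was called by genotype in either tissue or for the interaction, and DESeq2 and limma voom also called 0. At an unadjusted p under 0.05 edgeR gave 1 in muscle, 1 in fat and 2 for the interaction. In fat without mouse 138 it gave 6, beside 2746 of all 16579 genes then tested. The smallest p in muscle belonged to Prkaa1, an AMP-activated kinase subunit (log2 fold change -0.20, SE 0.09, edgeR adjusted p = 0.949), followed by Ppp1cb and Phkb, both at -0.15 (SE 0.09). In fat Calm3, a calmodulin gene, had the smallest (log2 fold change -0.35, SE 0.11, edgeR adjusted p = 0.588), followed by malin (Nhlrc1) at -0.55 (SE 0.24) and Ppp1r3f at 0.54 (SE 0.26). Calm3 and Nhlrc1 were the 2 genes of the 31 whose fat groups did not overlap, a share close to the 6.32% of all genes.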

How the data were processed

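The authors deposited raw counts of reads per gene, 1 column for each of 16 libraries and no scaling. Libraries were made from total RNA by a stranded kit after removal of ribosomal RNA and run on a NovaSeq, per the labels' protocols. STAR 2.7.0f, featureCounts 1.6.3, DESeq2 1.22.2 and GRCm38 are named in the submitters' processing notes, with no roles. How strand and multi-mapped reads were treated in counting is not given in the sources. GENCODE M21 held all 55536 identifiers. Genes were filtered with filterByExpr, scaled by TMM and tested by quasi-likelihood (robust fit) in edgeR 4.0.16 under R 4.3.3. Benjamini-Hochberg adjustment ran over the whole table tested, with a threshold of 0.05. The SE was taken from F, as the size of the log2 fold change over the root of F. The tissue and interaction tests used 16 libraries and the genotype tests 8. The main fits held no term for the mouse and so did not use the pairing of muscle and fat. Other scalings, filters, DESeq2 1.42.0, limma voom 3.58.1 and leaving out mice were the alternatives. The procedure was also run on counts simulated from its own model with the fitted spread. That run cannot show how the procedure treats a library unlike the rest of its group. Intervals from counts cover counting error only.

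The rule for the members uses no values, but they and the gene lists were chosen with earlier results of these data known. Named beside the members were pathway genes by rule: up to 12 called between tissues with at least 1 CPM and the largest difference, and the 3 with the smallest p by genotype. 1 gene that meets this rule is not reported here. Phkg2, Gbe1, Ppp1r3g, Prkab1, Prkag1 and Prkag2 and the shares of phosphorylase kinase and PPP1R3 genes were added after their values were seen. Sequences are from RefSeq. Muscle and fat libraries of the same number were read as 1 mouse. Their deviations from group means correlated at -0.02 to 0.05 in controls and 0.09 to 0.20 in knockouts. Muscle and fat libraries of unlike numbers correlated at -0.1 to 0.09 in controls and -0.17 to 0.12 in knockouts. In controls the correlations thus did not set the same numbers apart, and in knockouts the ranges also overlapped. Nothing says that libraries of a group differ in more than the mouse.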

Additional observations from a re-analysis of the deposited data

Results flagged for a closer look

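The level of Gys1 in control fat was set apart by 1 library. Mouse 138 was at 35.4 CPM, while the other 3 controls were at 85.0 to 92.0 CPM, and the gap took up 0.877 of the group's range, above Dixon's critical value of 0.829 for 4 samples. Of the 40 sets of 4 libraries checked (10 genes in 4 groups) this was the only 1 past the value, and chance flags about 1 in 20. The same library had low adipocyte markers and high smooth muscle markers, and their part in its Gys1 level was not tested.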

How the results depend on the processing

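All 10 members kept their tissue call and direction under the 16 alternatives run, with edgeR, DESeq2 or voom adjusted p of at most 0.000151. With the mouse as replicate block, the log2 fold changes were 7.32 for Pygm, -5.57 for Pygl, -4.21 for Pygb, 2.43 for Gys1 and -5.98 for Gys2, and the block changed no member's call. Muscle-higher genes made up 44.8% of tissue calls and 12.2% under total-count scaling. No member was called by genotype or for the interaction in any alternative (lowest adjusted p 0.524 in muscle, 0.151 in fat, 0.45 for the interaction). Over all genes, muscle gave 2 calls, 10 with DESeq2, 80 with no filter, 1 with at least 1 CPM in 4 libraries, and 1 to 10 without 1 mouse (1 without mouse 139, 10 without mouse 29). Fat gave 1 call, 72 with DESeq2, 0 with voom, 6 in a fit of all 16 libraries, 8 with a random replicate block there, 0 without mice 131 and 11, and 0 to 6 without 1 mouse (6 without mouse 138, 0 without mouse 131, 137, 11, 139, 960 or 29). The interaction gave 11 with DESeq2. The cause was not tested.

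Small genotype effects changed sign. In muscle, total-count scaling gave 0.04 for Pygm and 0.05 for Gys1, and Phka1 was at 0.00 without mice 131 and 11. Without 1 mouse, Pygm ran from -0.12 to 0.03, Gys1 from -0.08 to 0.05 and Phkg1 from -0.04 to 0.11. In fat without 1 mouse, Pygl ran from -0.05 to 0.57, Pygb from -0.26 to 0.02, Gyg from -0.06 to 0.35 and Phka1 from -0.03 to 0.41. Without mice 131 and 11, which left controls 137 and 138, Gys2 was at 0.06 and Ppp1r3c at 0.13. The Pygl interaction was -0.28 with voom, -0.24 without mice 131 and 11, -0.19 with the replicate block and -0.25 to 0.59 without 1 mouse. The Pygm share in muscle was 99.8% by the longest transcript and 99.7% with no length scaling, and the Gys2 share in fat was 16.8% with no length scaling. With no length scaling, Ppp1r3a and Ppp1r3c held 73.3% and 26.1% in muscle and 17.3% and 38.5% in fat, Pygm held 9.63% and Phkg1 55.8% in fat. Depth limits Gys2 in muscle, at 0 to 5 counts a library.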
